A study of Mus musculus with 9 samples.

Results

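The genes described here are the Notch receptors Notch1, Notch2 and Notch3, the Notch ligands Jag1, Jag2 and Dll4, and the Notch target genes Hes1, Hey1, Hey2 and Heyl. These 10 genes were taken by name from the 46078 genes counted in mouse ovaries, without use of their values, and all 10 passed the filter on low counts. RNA was sequenced from whole ovaries of 5 wild-type (WT) and 4 ERβKO mice, with 1 library per mouse. All mice were on the C57BL/6J background, and their treatment is given as Untreated. In the ERβKO mice, exon 3 of Esr2, the gene of estrogen receptor beta, was deleted in the germline and therefore in every cell, by crossing a floxed allele to a Rosa26-Cre deleter strain. The study's mice were 4 to 20 weeks old and were not staged for the estrous cycle. The comparison asks which ovarian transcripts differ when ERβ is missing.

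Notch receptors are single-pass membrane proteins that bind ligands of the Jagged and Delta-like families on the neighbouring cell. Binding exposes the receptor to cleavage by ADAM proteases and γ-secretase, and the released intracellular domain enters the nucleus, joins the DNA-binding protein RBPJ and a Mastermind protein, and switches on targets such as the Hes and Hey genes, whose products are transcriptional repressors. In the ovary, Notch signaling is known from granulosa cells, where it acts between the oocyte and the somatic cells of the follicle, and from blood vessels, where Dll4 marks endothelial cells and Notch3 and Heyl mark mural cells, the pericytes and smooth muscle cells around the vessel.

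RefSeq windows of 250 bases before to 50 bases after the gene start (GRCm38.p6) were at hand for 7 of the 10 genes, those of the receptors, the ligands and Hey2. The letters TGGGAA, the core of the RBPJ motif, were looked for on both strands. The Notch1 window (chr2:26503773-26504072) is placed at the RefSeq start and lies inside the gene as the expression tables delimit it, so it does not cover the outermost start of that model. The letters occurred in the window of Hey2 alone, 2 times, and in those of Notch1, Notch2, Notch3, Jag1, Jag2 and Dll4 not at all. Among 32851 mouse promoter windows of the same length, 25.6% held the letters at least once and 3.79% held them 2 or more times. The Hey2 window is shown because it is the only one with a match. It is given on the minus strand at chr10:30842774-30843033, up to 10 bases past the gene start, and the capitals mark the matches, which begin at base 44 (on the opposite strand) and base 248.
Hey2: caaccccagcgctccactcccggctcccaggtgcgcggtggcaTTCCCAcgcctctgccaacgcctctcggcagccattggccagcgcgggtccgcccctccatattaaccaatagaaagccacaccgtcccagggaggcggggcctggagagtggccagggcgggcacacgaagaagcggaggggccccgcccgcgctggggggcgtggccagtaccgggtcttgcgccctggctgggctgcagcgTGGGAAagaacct
A match of these letters is a description of the sequence and not a measured binding site.

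The libraries held 12353740 to 18717510 counted fragments. Esr2 did not separate the genotypes when all its exons were counted together, with WT ovaries at 12.4 to 23.9 FPKM and ERβKO ovaries at 10.5 to 23.7 (log2 fold change -0.02, SE 0.24), so the level of the whole gene does not check the genotype labels. FPKM scales the fragments of a gene to its length and to the size of the library, and levels of different genes are compared on this scale only. On the first principal component, 35.9% of the variance, the score of WT replicate 2 was 9.43, against -43.8 to -15.6 for the remaining WT ovaries and 19.4 to 35.3 for the ERβKO group. Results that rest on this ovary are given with and without it. It was singled out from these same data as the WT ovary nearest the ERβKO group. Leaving it out tends by construction to widen differences between the genotypes, so results without it are no independent support. All libraries also held markers of surface and oviduct epithelium. Of these 6 markers, Ovgp1 was at 1294 to 2359 FPKM in WT and 1483 to 1906 FPKM in ERβKO ovaries. WT replicate 2 was the highest WT ovary for Foxj1, Cdh1 and Krt19, but not for Ovgp1, Upk3b and Muc16. No fit took the mean of these markers as a term. How much of the Notch gene levels came from such epithelium was not tested. WT replicates 4 and 5 carry library numbers above 200 in the labels and no ERβKO library does, so the library numbering and the genotype cannot be fully told apart.

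None of the 10 Notch genes differed between the genotypes by the criteria of the study, which were an adjusted p below 0.05, a log2 fold change beyond 0.4 in either direction and a mean above 1 FPKM in at least 1 genotype. With edgeR's quasi-likelihood test on 16722 genes, 0 of 10 passed, against 1.72% of all genes tested (0.915% higher and 0.801% lower in ERβKO ovaries), and with DESeq2 0 of 10 passed, against 4.80%. At an unadjusted p below 0.05, 2 of the 10 genes stood out in either tool, namely Notch2, higher in ERβKO ovaries, and Notch3, lower. This share was close to that among all genes, 19.8% in edgeR and 20.7% in DESeq2. The log2 fold change of ERβKO over WT was above 0 for 6 genes and below 0 for 4, against 49.9% above 0 among all genes, and its median was 0.20 over the Notch genes and -0.00089 over all genes. The 95% intervals of all 10 log2 fold changes lay within 1 of 0, and the bound farthest from 0 was 0.90 for Hey1. A change of 2-fold or more was therefore outside the interval of every one of these genes in whole ovary RNA. In whole ovaries, fewer cells of a type and less RNA per cell cannot be told apart.

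**Figure D1:**
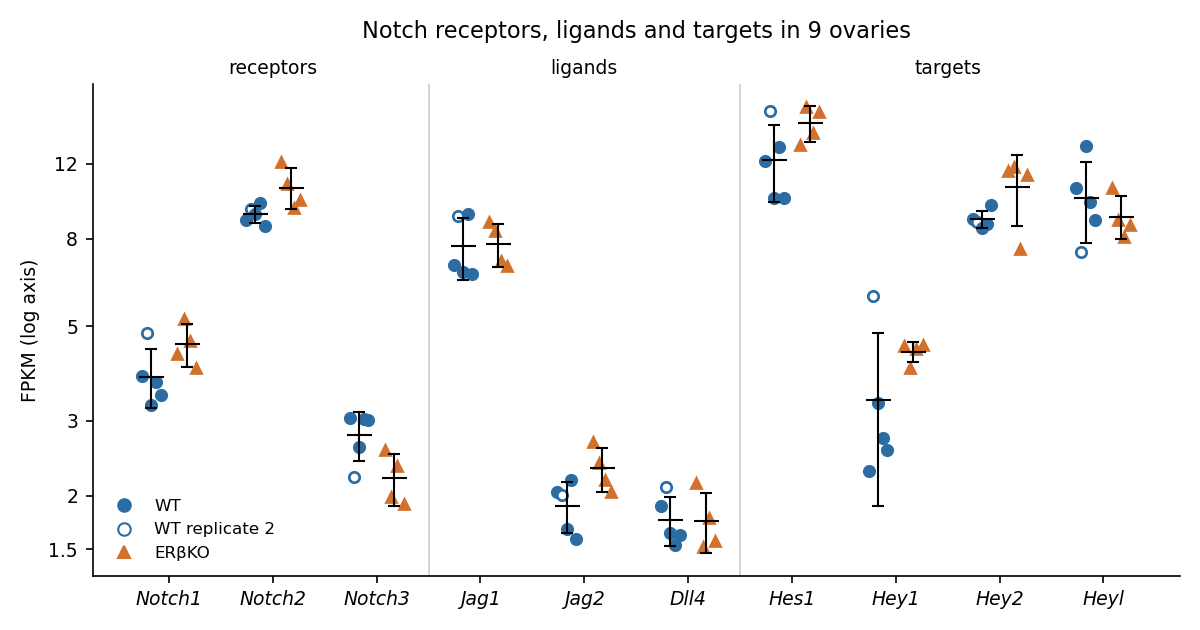
FPKM (log axis) of the 10 Notch genes in each ovary, with WT as circles (WT replicate 2 open) and ERβKO as triangles; black bars give the mean ± SD of each genotype (n = 5 and 4). The genotypes overlap for every gene, and the open circle is the highest or lowest WT ovary for Notch1, Notch3, Dll4, Hes1, Hey1 and Heyl.

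**Figure D2:**
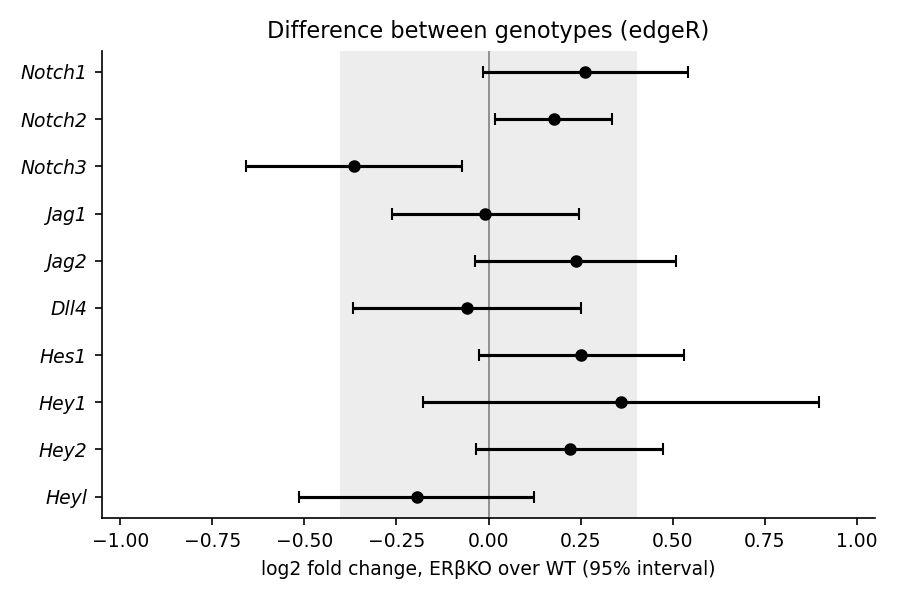
Log2 fold change of ERβKO over WT (x axis) from edgeR for each gene, with its 95% interval; the grey band spans 0.4 below to 0.4 above 0. The intervals of Notch2 and Notch3 leave out 0 before adjustment over all genes, and all 10 intervals lie within 1 of 0.

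Among the receptors, Notch2 was the most abundant. Notch2 (ENSMUSG00000027878, chr3:98013527-98150361, plus strand, GRCm38), the receptor most often described in granulosa cells, had FPKM of 8.86, 9.39, 9.17, 9.69 and 8.60 in the WT ovaries, in the order of their replicate numbers, and of 12.1, 10.7, 9.47 and 9.87 in the ERβKO ovaries. Of the 4 ERβKO ovaries, 3 lay above every WT ovary and replicate 3 lay within the WT range. The WT mean was 9.14 ± 0.43 FPKM (SD, n = 5) and the ERβKO mean was 10.5 ± 1.2 FPKM (SD, n = 4). On the log2 scale ERβKO exceeded WT by 0.18 (SE 0.072, 95% interval 0.02 to 0.34). The unadjusted p was 0.0331 in edgeR, and the adjusted p was 0.213 in edgeR and 0.187 in DESeq2. The two-sided exact permutation test of the FPKM over all splits of the ovaries gave p = 0.0317, where the smallest p it can give is 0.0159. Without WT replicates 4 and 5 the log2 fold change was 0.20 (edgeR adjusted p 0.350), and without ERβKO replicate 1, the highest ovary, it was 0.11 (edgeR adjusted p 0.416). That ovary also had the highest FPKM of the adipocyte markers Adipoq (150), Plin1 (22.8), Cidec (59.4) and Lep (20.1). All 4 were higher in ERβKO ovaries at an unadjusted p below 0.05 in edgeR, against 9.81% of all genes. The criteria passed 0 in edgeR and 3 in DESeq2, against 1.72% and 4.80%, and no fit took their mean as a term. With the mean of 8 luteal cell markers as a term in the fit the log2 fold change of Notch2 was 0.06 (edgeR adjusted p 0.797). With that of 9 granulosa cell markers it was 0.28 (edgeR adjusted p 0.394). The means of mural and endothelial cell markers gave 0.21 and 0.18 (edgeR adjusted p 0.256 and 0.285). The luteal mean log2 CPM was 8.84 to 9.98 in WT and 7.48 to 9.68 in ERβKO ovaries. The marker Akr1c18 (log2 fold change 1.23) was at 471 FPKM in ERβKO replicate 3 and at 1.29 to 19.4 in the other ERβKO ovaries. That replicate was also the highest ERβKO ovary for Star, Lhcgr and Ptgfr, and the lowest for Notch2 and Hey2. How far the fits with the luteal mean rest on this ovary was not tested. Of the 8 luteal markers 7 had a log2 fold change below 0 (median of all 8 -0.84). At an unadjusted p below 0.05 in edgeR 4 were lower, against 10.0% of all genes. By the criteria 0 passed in edgeR and 2 in DESeq2, against 1.72% and 4.80% of all genes. In the annotation, 5.02% of the exon bases of Notch2 are shared with a gene on the same strand, Gm42820.

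Notch3 (ENSMUSG00000038146, chr17:32120820-32166880, minus strand), the receptor of mural cells, had the smallest p of the 10 genes and the opposite direction to Notch2. The WT ovaries were at 3.04, 2.21, 2.60, 3.03 and 3.01 FPKM and the ERβKO ovaries at 2.57, 1.99, 2.35 and 1.91 FPKM. WT replicate 2 was the lowest WT ovary and lay among the ERβKO values, while ERβKO replicates 2 and 4 were below every WT ovary. The mean was 2.78 ± 0.37 in WT and 2.20 ± 0.31 FPKM in ERβKO ovaries. The log2 fold change was -0.37 (SE 0.13, 95% interval -0.66 to -0.07), with an adjusted p of 0.167 in edgeR and 0.0944 in DESeq2, and the exact permutation test of the FPKM gave p = 0.0635. Without WT replicate 2, the ovary singled out for lying nearest the ERβKO group, Notch3 passed the criteria (log2 fold change -0.45, edgeR adjusted p 0.0398). In that fit 5.51% of all genes tested passed, against 1.72% with all ovaries. Without WT replicates 4 and 5 the log2 fold change was -0.25 (edgeR adjusted p 0.490). The annotation places 6.03% of the exon bases of Notch3 opposite another gene, and whether the counting used strand is not given.

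Most mural cell markers also had lower values in the ERβKO ovaries. Of 11 mural markers, 9 had a log2 fold change below 0, where 49.9% of all genes were above 0. By the criteria 1 fell in edgeR, Pdgfrb, the platelet-derived growth factor receptor of pericytes (13.4 ± 2.6 in WT and 9.03 ± 1.3 FPKM in ERβKO ovaries, log2 fold change -0.59, SE 0.13, adjusted p 0.0487). The paper lists Pdgfrb among its direct ERβ targets, with a binding site in intron 1, so it is not a marker of cell content alone. The pericyte gene Rgs5 was at 22.5 ± 3.6 in WT and 15.3 ± 2.1 FPKM in ERβKO ovaries (log2 fold change -0.59, SE 0.14, adjusted p 0.0540 in edgeR and 0.00185 in DESeq2). DESeq2 called 2 of the 11 markers, Pdgfrb and Rgs5. Of all genes tested, 0.801% were called lower in edgeR, and DESeq2 called 4.80% in either direction. The mean log2 CPM (counts scaled to library size) of the mural markers was 6.75 to 7.14 in WT and 6.54 to 6.82 in ERβKO ovaries. WT replicate 2 had the highest value, 7.14, but the markers did not move together in it. It was the highest WT ovary for the smooth muscle genes Acta2 (539 FPKM), Cnn1 (58.2) and Des (49.5). For the pericyte gene Rgs5 it was the lowest WT ovary (16.1 FPKM). A fit with this mean is therefore not an adjustment for pericytes alone. No defining mural marker was at 0. With this mean as a term in the edgeR fit, the log2 fold change of Notch3 was -0.46 (adjusted p 0.169). It was -0.27 with the mean of 10 endothelial markers (adjusted p 0.260), of which 0 passed the criteria, with 1 unadjusted p below 0.05 in edgeR and 0 calls in DESeq2, and -0.20 with that of the granulosa cell markers (adjusted p 0.772). With the luteal mean it was -0.26 (adjusted p 0.635). The granulosa mean did not overlap between the genotypes, so that a fit with it leaves little of the genotype difference to estimate.

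Notch1 (ENSMUSG00000026923, chr2:26457903-26516663, minus strand), the receptor of endothelial and many other cells, was at 3.82, 4.81, 3.26, 3.70 and 3.45 FPKM in the WT and 4.31, 5.20, 4.61 and 3.99 FPKM in the ERβKO ovaries. ERβKO replicate 2 was the highest of all 9, and the other 3 lay within the WT range, whose upper end was again WT replicate 2. The means were 3.81 ± 0.60 and 4.53 ± 0.52 FPKM, and the log2 fold change was 0.26 (SE 0.13, edgeR adjusted p 0.280). Without WT replicate 2 it was 0.37 (edgeR adjusted p 0.0610). With the granulosa marker mean as a term it was 0.01 (edgeR adjusted p 0.995). The endothelial, mural and luteal means gave 0.22, 0.36 and 0.24 (edgeR adjusted p 0.417, 0.263 and 0.647). The annotation places 9.76% of its exon bases opposite other genes.

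The total of the 3 receptors was 15.0 to 16.4 in WT and 15.8 to 19.0 FPKM in ERβKO ovaries. Notch2 made up 56.4% to 61.0% of it in WT and 57.6% to 63.8% in ERβKO ovaries, and Notch3 made up 13.5% to 19.98% and 11.1% to 14.3%. Both shares overlapped between the genotypes. For Notch3 the overlap came from WT replicate 2 (13.5%), while the other WT ovaries were at 17.3% to 19.98%.

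Among the ligands, Jag1 was the most abundant and the difference between the genotypes was the nearest to 0 of all 10 genes. Jag1 (ENSMUSG00000027276, chr2:137081456-137116644, minus strand), a Jagged ligand that oocytes and vessel cells are known to carry, was at 6.95, 9.03, 6.71, 9.13 and 6.62 FPKM in the WT ovaries. In the ERβKO ovaries it was at 8.76, 8.34, 7.10 and 6.90 FPKM, all within the WT range. Its log2 fold change was -0.01 (SE 0.11, 95% interval -0.26 to 0.25, edgeR adjusted p 0.971), and its sign turned under several alternative settings. In a set of 7 oocyte markers all 7 had a log2 fold change above 0 (0.32 to 0.48, median 0.42) and 0 passed the criteria, with 0 at an unadjusted p below 0.05 in edgeR and 0 calls in DESeq2, and their mean log2 CPM was 3.72 to 5.24 in WT and 4.72 to 5.30 in ERβKO ovaries.

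Jag2 (ENSMUSG00000002799, chr12:112908590-112929495, minus strand), the other Jagged ligand, was at 2.04, 2.01, 1.68, 2.18 and 1.58 FPKM in the WT and 2.67, 2.39, 2.18 and 2.05 FPKM in the ERβKO ovaries. ERβKO replicates 1 and 2 were above every WT ovary, and the other 2 lay in the upper part of the WT range. Its log2 fold change was 0.24 (SE 0.12, 95% interval -0.04 to 0.51, edgeR adjusted p 0.319), and the exact permutation test of the FPKM gave p = 0.0635. With the granulosa and the luteal marker means as terms the log2 fold change was 0.38 and 0.15 (edgeR adjusted p 0.504 and 0.766). The endothelial and mural means gave 0.23 and 0.32 (edgeR adjusted p 0.404 and 0.308). As a share of the FPKM of the 3 ligands, Jag2 was at 15.3% to 18.8% in WT and 19.5% to 19.7% in ERβKO ovaries. This share was looked at after the levels were known and was not tested.

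Dll4 (ENSMUSG00000027314, chr2:119325784-119335962, plus strand), the Delta-like ligand of endothelial tip cells and arteries, had the lowest level of the 10 genes. It was at 1.89, 2.10, 1.64, 1.53 and 1.62 FPKM in the WT and 2.14, 1.52, 1.78 and 1.57 FPKM in the ERβKO ovaries, with no more than 192 counts in a library. The genotypes covered nearly the same range. This gave a log2 fold change of -0.06 (SE 0.14, 95% interval -0.37 to 0.25, edgeR adjusted p 0.856). The mean log2 CPM of the endothelial markers was likewise overlapping, at 5.25 to 5.61 in WT and 5.26 to 5.48 in ERβKO ovaries, and the annotation places 5.56% of the exon bases of Dll4 opposite another gene.

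Among the targets, Hes1, Hey1 and Hey2 had a log2 fold change above 0 and Heyl had one below 0, and none passed the criteria. Hes1 (ENSMUSG00000022528, chr16:30064384-30067796, plus strand), the most widely expressed Hes repressor, was at 12.2, 15.98, 10.0, 13.2 and 9.98 FPKM in the WT and 13.3, 16.3, 14.2 and 15.9 FPKM in the ERβKO ovaries. WT replicate 2 lay with the higher ERβKO ovaries, and ERβKO replicate 2 was the highest of all 9. The means were 12.3 ± 2.5 and 14.9 ± 1.4 FPKM, with a log2 fold change of 0.25 (SE 0.13, 95% interval -0.03 to 0.53, edgeR adjusted p 0.299). Without WT replicate 2 it was 0.36 (edgeR adjusted p 0.0582), and with the granulosa marker mean as a term 0.14 (edgeR adjusted p 0.842). The endothelial, mural and luteal means gave 0.18, 0.36 and 0.19 (edgeR adjusted p 0.436, 0.269 and 0.714).

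Hey1 (ENSMUSG00000040289, chr3:8663359-8667256, minus strand), a Hairy-related repressor downstream of Notch in vessels and other tissues, varied most among the WT ovaries. It was at 2.28, 5.88, 3.29, 2.73 and 2.57 FPKM in the WT and 4.48, 3.99, 4.42 and 4.52 FPKM in the ERβKO ovaries. All 4 ERβKO ovaries lay above 4 of the 5 WT ovaries and below WT replicate 2. The coefficient of variation was 43.6% in WT and 5.60% in ERβKO ovaries, and the means were 3.35 ± 1.5 and 4.35 ± 0.24 FPKM. With all ovaries the log2 fold change was 0.36 (SE 0.24, 95% interval -0.18 to 0.90, edgeR adjusted p 0.443). Without WT replicate 2 it was 0.64 with an edgeR adjusted p of 0.0295, which passed the criteria, in the fit where 5.51% of all genes passed. Without WT replicates 4 and 5 it was 0.18 (edgeR adjusted p 0.817).

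The mean log2 CPM of 9 granulosa markers was 5.81 to 6.27 in WT, with WT replicate 2 the highest, and 6.33 to 6.82 in ERβKO ovaries. Of the 9 markers 8 had a log2 fold change above 0, and none was at 0. In edgeR 1 of the 9 passed the criteria, the estradiol-synthesis gene Hsd17b1 (log2 fold change 0.77), against 1.72% of all genes. DESeq2 called 3, Hsd17b1, the follicle-stimulating hormone receptor Fshr (edgeR log2 fold change 1.06, DESeq2 adjusted p 0.00405) and the inhibin subunit Inha (edgeR log2 fold change 0.50, DESeq2 adjusted p 0.00651), against 4.80%. With this mean as a term the log2 fold change of Hey1 was -0.03 (edgeR adjusted p 0.986), and with the mural mean it was 0.94 (edgeR adjusted p 0.0632). The endothelial and luteal means gave 0.26 and 0.27 (edgeR adjusted p 0.555 and 0.785). Since the granulosa means of the genotypes do not overlap, this marker mean and the genotype cannot be told apart for Hey1. The paper counts Hsd17b1, Fshr and Inha among the ERβ-bound genes that changed in the knockout, so the mean is not a measure of cell share alone. Cell share and regulation of these markers were not tested apart.

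Hey2 (ENSMUSG00000019789, chr10:30832359-30842801, minus strand), the gene whose promoter letters are given above, was the least variable target in WT ovaries. It was at 8.92, 8.77, 8.48, 8.68 and 9.59 FPKM in the WT and 11.6, 11.8, 7.58 and 11.3 FPKM in the ERβKO ovaries. ERβKO replicates 1, 2 and 4 were above every WT ovary, and ERβKO replicate 3 was below every WT ovary. The means were 8.89 ± 0.42 and 10.6 ± 2.0 FPKM, and the log2 fold change was 0.22 (SE 0.11, 95% interval -0.03 to 0.47, edgeR adjusted p 0.319). Without ERβKO replicate 3 it was 0.34 (edgeR adjusted p 0.0676), and with the luteal and the mural marker means as terms it was 0.08 and 0.07 (edgeR adjusted p 0.888 and 0.820). The granulosa and endothelial means gave 0.32 and 0.24 (edgeR adjusted p 0.556 and 0.341).

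Heyl (ENSMUSG00000032744, chr4:123233556-123249875, plus strand), the Hey family member of vascular smooth muscle and pericytes, was at 10.5, 7.47, 13.2, 9.76 and 8.87 FPKM in the WT and 10.5, 8.84, 8.09 and 8.65 FPKM in the ERβKO ovaries. All ERβKO ovaries lay within the WT range, the lower end of which was WT replicate 2. Its log2 fold change was -0.19 (SE 0.14, 95% interval -0.51 to 0.13, edgeR adjusted p 0.488). Without WT replicate 2 it was -0.29 (edgeR adjusted p 0.167), and without WT replicate 3, the highest ovary, -0.08 (edgeR adjusted p 0.755). With the granulosa and the endothelial marker means as terms it was 0.13 and -0.09 (edgeR adjusted p 0.871 and 0.754). The mural and luteal means gave -0.19 and -0.28 (edgeR adjusted p 0.631 and 0.645). The total of the 4 targets was 31.0 to 38.1 in WT and 34.3 to 40.9 FPKM in ERβKO ovaries.

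**Figure D3:**
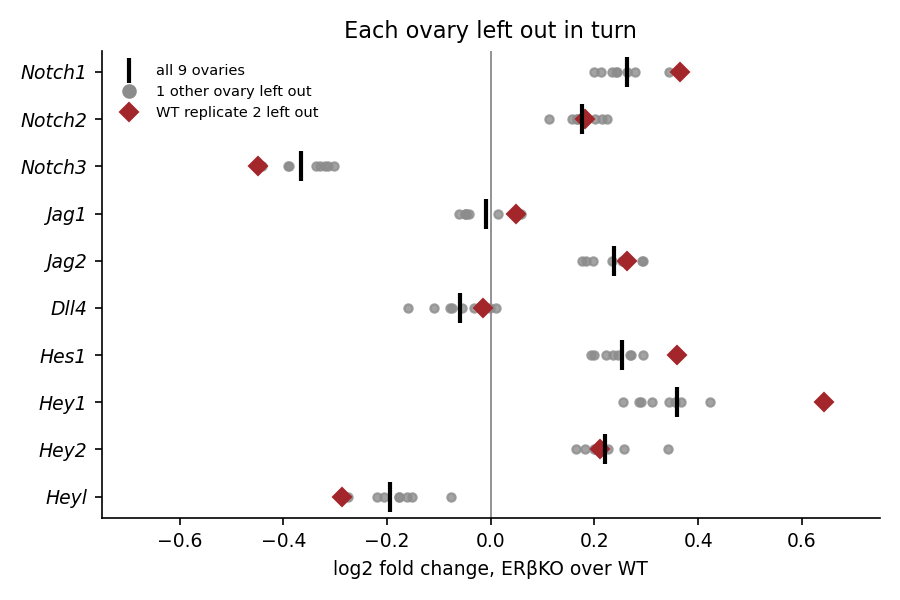
Log2 fold change of ERβKO over WT (x axis) from edgeR with all 9 ovaries (black bar), with WT replicate 2 left out (red diamond) and with each other ovary left out (grey points). Leaving out WT replicate 2 moved Hey1 from 0.36 to 0.64 and Notch3 from -0.37 to -0.45, and the points of Jag1 and Dll4 lie on both sides of 0.

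WT replicate 2 was the highest or lowest WT ovary for 6 of the 10 genes (Notch1, Notch3, Dll4, Hes1, Hey1 and Heyl), against 46.1% of all genes tested. It lay toward the ERβKO ovaries for Notch1, Notch3, Hes1, Hey1 and Heyl, which is also where it lay on the first principal component. The genotypes did not overlap in FPKM for 0 of the 10 genes, against 7.61% of all genes tested (4.29% higher and 3.31% lower in ERβKO ovaries). Of 22 alternative settings, a Notch gene passed the criteria in 1, the one without WT replicate 2, where Notch3 and Hey1 passed.

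Ordered by the mean over the 9 ovaries, Hes1 (13.4 FPKM) was followed by Notch2 (9.77), Hey2 (9.63), Heyl (9.55), Jag1 (7.73), Notch1 (4.13), Hey1 (3.80), Notch3 (2.52), Jag2 (2.09) and Dll4 (1.75 FPKM). Neighbours in this order were compared by an exact two-sided sign-flip permutation test of their log2 ratio in each ovary, with p-values adjusted over the 9 pairs. Hes1 exceeded Notch2 in 9 of 9 ovaries (adjusted exact p = 0.0176), and Jag1 exceeded Notch1 in 9 of 9 (adjusted exact p = 0.0176). The other 7 neighbouring pairs did not differ beyond their spread, with adjusted exact p from 0.0615 to 0.895.

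For Notch3, the gene with the smallest p, the 3 genes whose log2 CPM followed it most closely over the 9 ovaries among 16721 others were Prkaca, the catalytic subunit alpha of protein kinase A (r = 0.970), Mrpl9, a mitochondrial ribosomal protein (r = 0.963), and RP24-86I23.4 (r = 0.962). Among the other Notch genes, Heyl had the highest correlation with Notch3 (r = 0.566), and Hes1 and Hey1 had the lowest (both r = -0.80). These correlations pool both genotypes and share the libraries, and are given as a description.

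The rest of the pathway was read from a list of 56 further genes, of which 49 passed the filter on low counts. In edgeR 0 of the 49 passed the criteria in either direction, while at an unadjusted p below 0.05 12 were higher and 1 was lower in ERβKO ovaries, against 9.81% higher and 10.0% lower among all genes. DESeq2 called 2 of the 49, Tle4 and Fbxw7, a share close to the 4.80% among all genes. The log2 fold change was above 0 for 29 and below 0 for 20, with a median of 0.05. The remaining 7 genes, Dll3, Dlk1, Dlk2, Hes2, Hes3, Hes5 and Hes7, had too few counts to be tested.

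The 12 higher genes at an unadjusted p below 0.05 were 5 of 9 corepressors, 6 of 12 ubiquitin ligases and trafficking genes, and 1 of 8 genes of the nuclear complex. Among all genes the share was 9.81%. Tle4, a Groucho-type corepressor recruited by Hes and Hey proteins, was at 2.60, 2.49, 2.60, 2.62 and 1.86 FPKM in the WT and 3.72, 3.12, 3.39 and 3.23 FPKM in the ERβKO ovaries. All ERβKO ovaries were above all WT ovaries, as for 4.29% of all genes. The log2 fold change was 0.44 (SE 0.11), with an adjusted p of 0.0664 in edgeR and 0.00684 in DESeq2.

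Fbxw7, the ubiquitin ligase subunit that marks the Notch intracellular domain for degradation, was at 10.4, 12.2, 6.88, 8.76 and 9.54 FPKM in the WT and 11.9, 13.5, 14.7 and 19.4 FPKM in the ERβKO ovaries. The lowest ERβKO ovary was just under WT replicate 2, and the others were above every WT ovary. The log2 fold change was 0.59 (SE 0.15), with an adjusted p of 0.0769 in edgeR and 0.0149 in DESeq2, and without WT replicate 2 it was 0.70 with an edgeR adjusted p of 0.0198. Rbpj, the DNA-binding partner of all Notch receptors, named here after its values were seen, was the 1 nuclear complex gene and was at 16.03 ± 0.98 in WT and 19.3 ± 2.1 FPKM in ERβKO ovaries. Its log2 fold change was 0.24 (SE 0.071, adjusted p 0.104 in edgeR and 0.0432 in DESeq2), below the 0.4 that the criteria ask for.

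**Figure D4:**
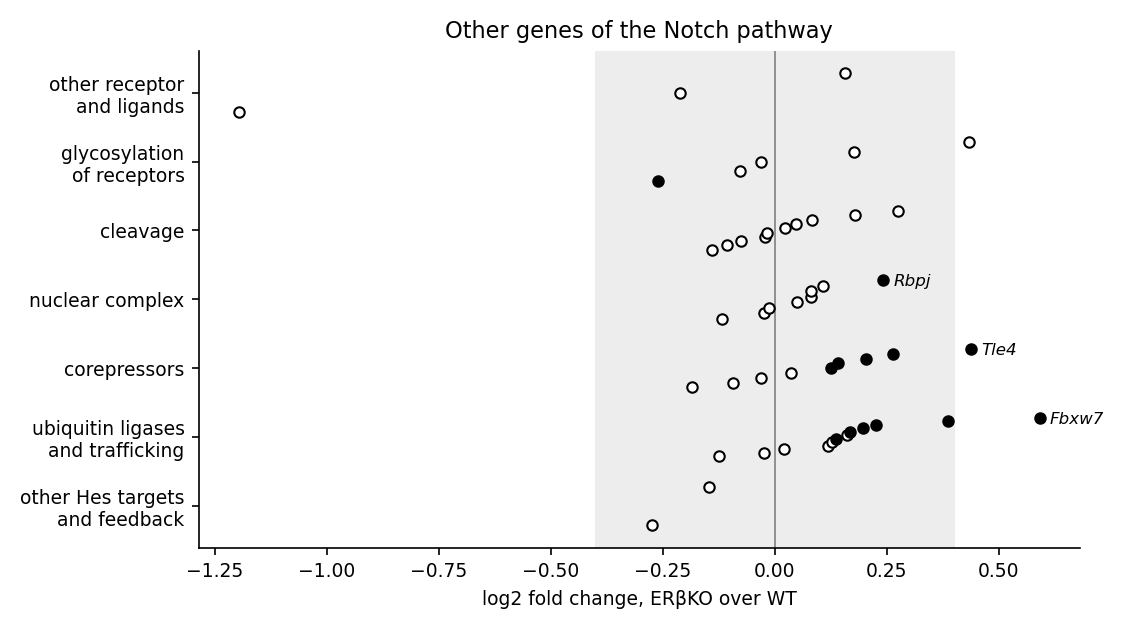
Log2 fold change of ERβKO over WT (x axis) from edgeR for the 49 further Notch pathway genes tested, by role; filled points have an unadjusted p below 0.05 and the grey band spans 0.4 below to 0.4 above 0. Filled points on the right are mostly corepressors and ubiquitin ligases, and Tle4 and Fbxw7 are the 2 that DESeq2 called.

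No gene of the cleavage machinery passed the criteria. Of 10 cleavage genes 5 had a log2 fold change above 0 and 5 below 0, from -0.14 to 0.27, and 0 had an unadjusted p below 0.05 in edgeR or a call in DESeq2. Ncstn, the γ-secretase subunit nicastrin and the most abundant of them, was at 49.0 ± 2.2 in WT and 51.6 ± 2.6 FPKM in ERβKO ovaries. Of 5 receptor glycosylation genes 1 had an unadjusted p below 0.05, Pofut1, the protein O-fucosyltransferase that Notch needs to bind its ligands, at 8.47 ± 0.84 in WT and 7.16 ± 0.52 FPKM in ERβKO ovaries (log2 fold change -0.26, SE 0.084, edgeR adjusted p 0.127). The most abundant of these was Poglut1, the protein O-glucosyltransferase, at 14.4 ± 1.0 and 14.9 ± 0.70 FPKM.

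In the other roles the most abundant gene was likewise not called. Notch4, the fourth receptor, was at 1.14 ± 0.25 in WT and 1.04 ± 0.32 FPKM in ERβKO ovaries, below each of the 3 receptors described above. Snw1, a coactivator of the RBPJ complex, was at 42.7 ± 1.5 and 42.7 ± 2.2 FPKM, and the histone deacetylase Hdac1 at 41.0 ± 1.1 and 39.5 ± 1.1 FPKM. Dtx3, a Deltex ubiquitin ligase, was at 59.1 ± 3.2 and 66.9 ± 3.9 FPKM (log2 fold change 0.17, SE 0.057, edgeR adjusted p 0.147). All its ERβKO ovaries were above all WT ovaries, as for 4.29% of all genes. The same held for Tle4 and for Ctbp2, Sin3a, Mib2 and Dtx1, the last 4 named here after their values were seen. Together with Dtx3 these genes are a larger share of the 49 pathway genes tested than 4.29%, and this excess was not tested. Hes6, which interferes with Hes1, was at 6.28 ± 1.2 and 5.49 ± 1.3 FPKM.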

How the data were processed

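Whole ovary RNA of 5 WT and 4 ERβKO mice was sequenced from stranded poly-A libraries (paired reads of 150 bases). Per the labels, bcl2fastq 2.20.0.422, Trim Galore, STAR (mm10), featureCounts and StringTie were used; other versions and the strand setting are not given in the sources used here. The authors deposited raw counts per gene from featureCounts and FPKM from StringTie, 1 table per library. FPKM are scaled to library size and transcript length. Coverage and TPM columns were not used.

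Counts were tested with edgeR 4.0.16 (R 4.3.3; TMM, filterByExpr, quasi-likelihood F test, genotype only, Benjamini-Hochberg over 16722 genes), and with DESeq2 1.42.0 and limma 3.58.1 as alternatives, after tests on simulated counts. The common biological coefficient of variation was 0.179, and 12353740 to 18717510 counts per library limit the precision of low genes. FPKM of single genes were compared by exact permutation (SciPy 1.17.1). Errors are SD over mice and intervals are 95%. P-values of the genotype comparison set the difference against the spread between mice. Those of the order of levels set the log2 ratio of neighbouring genes against its spread over all ovaries.

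The 10 genes were taken by name, without use of their values. Earlier results of these data were known when these genes, the pathway list and the marker lists were chosen. The rule named the 10 genes; pathway genes called by edgeR or DESeq2 and the most abundant of each role; and the 3 genes most like the one with the smallest p. Alternatives covered the tool, scaling, low-count filter, replicate block, each ovary left out, WT libraries numbered above 200, pseudocounts of 1 and 0.1 on log2 FPKM, and marker means as covariates. Gene coordinates are those of the deposited tables, and promoter windows are from RefSeq.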

Additional observations from a re-analysis of the deposited data

Results flagged for a closer look

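In the WT group, Hey1 in replicate 2 (5.88 FPKM) stood apart from the other WT ovaries (2.28 to 3.29 FPKM), with a gap to its nearest neighbour of 0.719 of the whole range. In the ERβKO group, Hey2 in replicate 3 (7.58 FPKM) stood apart from the other ERβKO ovaries (11.3 to 11.8 FPKM), with a gap of 0.891 of the range. Both gaps exceed Dixon's 95% critical value for the group size, which chance alone passes in about 1 in 20 groups, and 10 genes were looked at in each genotype.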

How the results depend on the processing

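Of 220 log2 fold changes (10 Notch genes under 22 alternatives), 205 kept their direction and their side of the criteria, 2 newly passed them and 13 changed sign; the cause was not tested. Without WT replicate 2, Notch3 (-0.45) and Hey1 (0.64) passed, so the number of Notch genes called ranged from 0 to 2 with 1 ovary left out. Jag1 ranged from -0.060 to 0.058 with 1 ovary left out (0.049 without WT replicate 2, 0.053 without WT replicate 4, 0.014 without ERβKO replicate 3, 0.058 without ERβKO replicate 4), was 0.027 without the WT libraries numbered above 200, 0.021 and 0.024 by limma on log2(FPKM + 1) and log2(FPKM + 0.1), and 0.10 and 0.0040 with the mural and granulosa markers as covariates; its difference in TMM-normalized CPM also had the other sign (exact permutation p = 0.873). Dll4 ranged from -0.16 to 0.0096 with 1 ovary left out and was 0.089 with the mural markers, and with the granulosa markers Hey1 was -0.026 and Heyl 0.13. Over all genes, 287 passed in edgeR, 802 in DESeq2, 191 by limma on log2(FPKM + 1), 51 without the WT libraries numbered above 200, 60 (without ERβKO replicate 2) to 912 (without WT replicate 2) with 1 ovary left out, and 175, 23 and 37 with the endothelial, granulosa and luteal markers as covariates. Of the other pathway genes 2 passed in DESeq2 and 0 to 1 with 1 ovary left out. With the replicate number as a block 155 genes passed and no Notch gene. For each gene the deviation of its log2 CPM from the genotype mean was taken. Between same-numbered ovaries these deviations correlated at 0.0948, 0.130, -0.0427 and -0.0105, so the numbers behind the replicate block were not taken to pair mice.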
